A study of Mus musculus with 24 samples.

Results

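The comparison described here is that of day 8 with day 4 in mouse white fat cells that were kept in epigallocatechin gallate (EGCG), the main catechin of green tea. Its members were chosen by sample name: the 3 libraries of WAT EGCG cells on day 8 and the 3 on day 4, 6 of the 24 libraries of the series. The cells were the stromal vascular fraction (SVF) of inguinal white adipose tissue (WAT) of 6-week-old C57BL/6 mice, which was grown to near confluence and differentiated in culture. For the first 4 days the induction medium held DMEM, FBS, insulin, dexamethasone and 3-isobutyl-methylxanthine (IBMX), and for the next 4 days the medium held DMEM, FBS, insulin and T3, so the day 4 libraries were taken at the end of induction and the day 8 libraries at the end of maturation. EGCG was present in all 6, and its dose and the timing of its addition were not given in the sources used here. The day change was set beside that of WAT control cells, which had the same media with DMSO, and that of EGCG-treated cells from interscapular brown adipose tissue (BAT), each again with 3 libraries a day. The SVF is a mixed primary culture that also holds immune, endothelial and nerve sheath cells, and the labels do not say whether mice were pooled or whether replicates were separate isolations, so p-values measure only the spread between these libraries, which may be technical.

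Adipogenesis in culture is started by hormones. Dexamethasone acts on the glucocorticoid receptor and IBMX blocks the breakdown of cyclic AMP, and together with insulin they switch on C/EBPβ and C/EBPδ, which switch on PPARγ and C/EBPα, and these in turn drive the genes of lipid storage, lipolysis and adipokine secretion. Once the induction medium is withdrawn, insulin and the thyroid hormone T3 carry the cells through lipid filling. Precursors that do not differentiate keep the features of fibroblasts: matrix, surface markers such as Pdgfra and Ly6a, and, under tension, the contractile genes of myofibroblasts.

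Expression is given in FPKM, read counts adjusted for gene length and library depth. Across the series the depth on genes was 39452696 to 52893848 reads for replicates 1 and 2 and 16392420 to 41675643 reads for replicate 3, and a count of 0 on a gene of 2 kb allowed up to 0.0288 to 0.064 FPKM in 5 of the 6 libraries (3 reads, counting error only). Replicate 3 was deposited in a second table that had been scaled separately, and its day 8 library stood apart: 25426249 of its 41675643 reads (61.0%) fell on Prl3d1, 1700007K09Rik, 4930555F03Rik, 6030405A18Rik and Gm4675, none of which had more than 5 reads in any of the other 23 libraries. These 5 genes were dropped from that library and the remaining 16249394 reads rescaled, on which a count of 0 allowed up to 0.0923 FPKM. Tests therefore used replicates 1 and 2 only, and replicate 3 gave a direction. Values below are in the order of replicates 1, 2 and 3, and each log2 change is that of replicates 1 and 2 on the log2(FPKM + 1) scale, day 8 minus day 4, with its SE and adjusted p (limma, 14095 genes, called at an adjusted p under 0.05). A number alone in parentheses after a gene is its log2 change. That scale understates the change of genes of low level.

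Most genes differed between the days. Of the 14095 genes tested, 8383 (59.5%) were called, 4476 (31.8%) higher and 3907 (27.7%) lower on day 8, with a median log2 change of 0.02, and 1136 (8.06%) changed at least 2-fold. In replicate 3, 8041 of the 8383 called genes (95.9%) moved the same way, beside 83.3% of all genes tested. The share comes from 1 pair of libraries, and genes are not independent replicates. With the day 8 library of replicate 3 as deposited the share was 53.4%. These percentages are the background against which the counts in each gene list are read. In WAT control cells 27.7% of all genes were called higher and 33.2% lower on day 8. Where the days of a gene are said not to overlap, the share of all genes that do so is not given. Such genes were mostly picked for large changes, so their separation is a description and not added evidence.

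**Figure D1:**
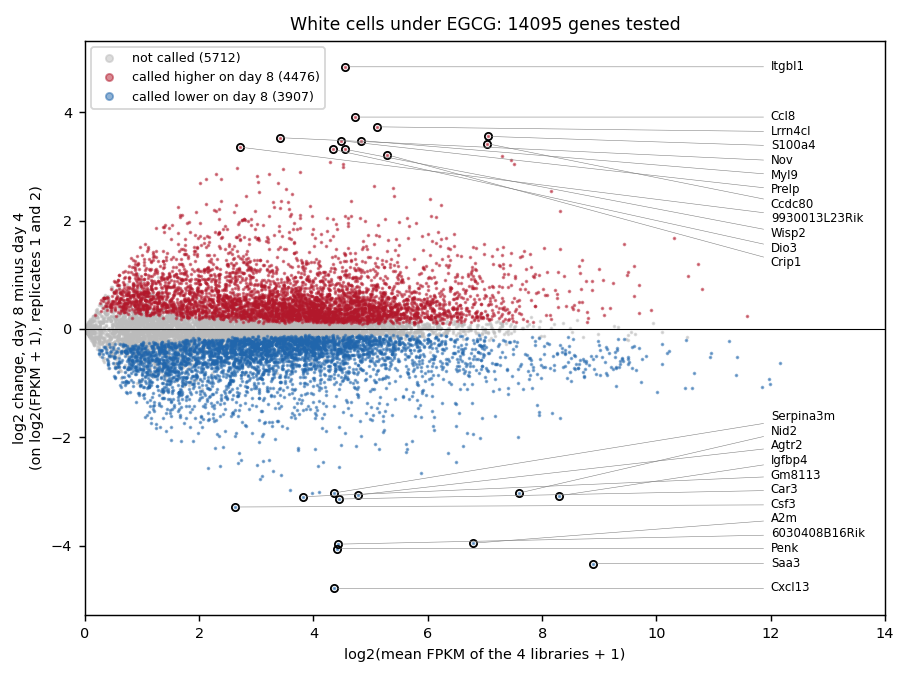
Each point is a gene. The horizontal axis is log2 of the mean FPKM of the 4 libraries of replicates 1 and 2 plus 1, and the vertical axis is the log2 change from day 4 to day 8 under EGCG. Red genes (4476) were called higher and blue genes (3907) lower. The 12 highest and 12 lowest genes chosen by rule are circled, from Itgbl1 at 4.84 to Cxcl13 at -4.79.

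The label of the cells, WAT preadipocyte, was read against marker genes. Preadipocyte markers (Pdgfra, Ly6a, Cd34 and Dlk1) summed to 411 to 446 FPKM on day 4 and 559 to 652 on day 8, most of it Ly6a, and without Ly6a to 124 to 144 FPKM on day 4 and 110.3 to 133 on day 8. Adipocyte markers (Adipoq, Lep, Cfd, Fabp4, Plin1 and Cidec) summed to 357 to 394 FPKM on day 4 and 119.6 to 138 on day 8, nearly all of it Fabp4, and Lep, the leptin gene, was under 0.01 FPKM in replicates 1 and 2 of both days. With Ly6a the precursor sum was above the adipocyte sum on both days. Without it, it was below the adipocyte sum on day 4, so the order there and the rise of the precursor sum rest on 1 gene. Macrophage markers (Emr1, Cd68, Csf1r, Ptprc and Lyz2) summed to 164 to 179 FPKM on day 4 and 52 to 61.3 on day 8, most of it Lyz2. The fall of this sum rests mainly on Lyz2. Of the others Emr1 (-0.69) and Cd68 (-0.20) fell, Csf1r was not called and Ptprc was too low to be tested. Endothelial markers summed to 28.9 to 32.2 FPKM on day 4 and 23 to 24.5 on day 8, skeletal muscle markers to 45.5 to 48.4 FPKM on day 4 and 22.8 to 25.5 on day 8, mesothelial and epithelial markers to 21.6 to 38.9 FPKM on day 4 and 14.5 to 19.7 on day 8 and Schwann cell markers to 16.5 to 22.4 FPKM on day 4 and 29.1 to 34 on day 8. Cd3e of T lymphocytes, the placental Prl3b1 and the testis genes Tnp1 and Odf1 were at or near 0. Prl3d1, also a placental marker, held 8164945 reads (19.6%) of the day 8 library of replicate 3 before it was dropped there. It had at most 1 read in any other library of the series. In bulk RNA, fewer cells of a type and less RNA per cell cannot be told apart, which holds for each result below.

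**Figure D2:**
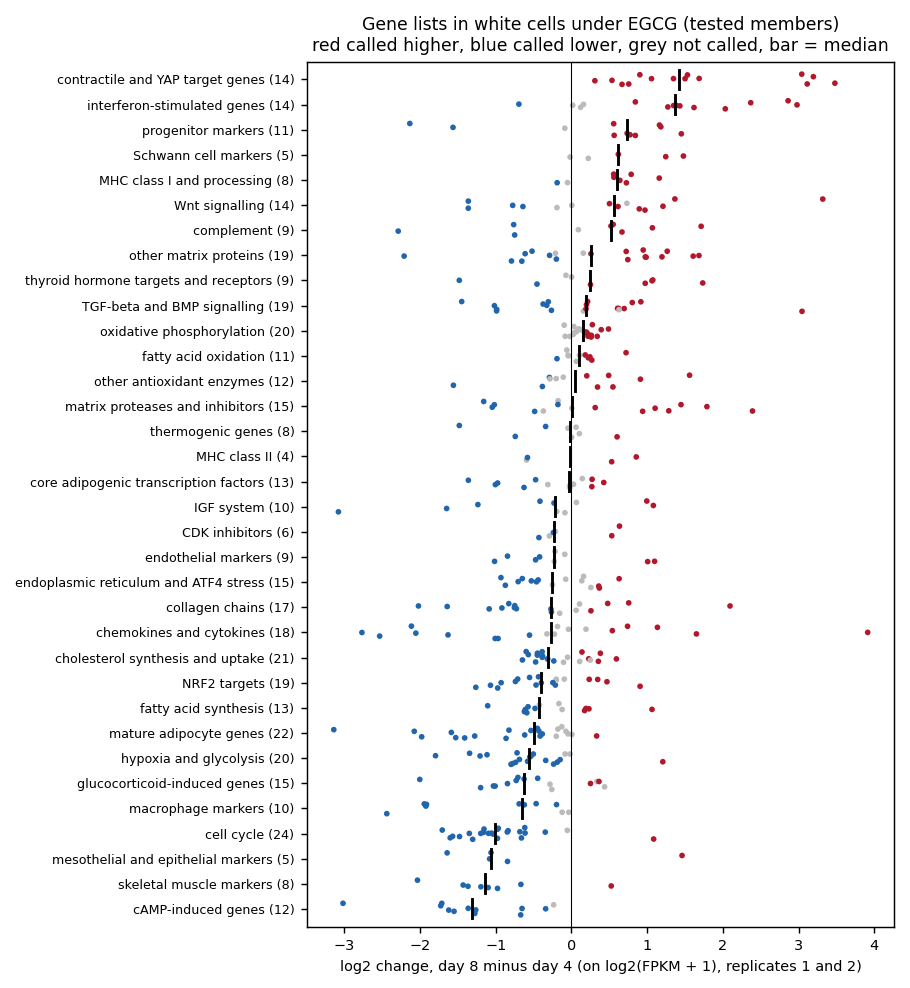
Each point is a tested member of the gene list named on the vertical axis (number tested in parentheses), placed at its log2 change from day 4 to day 8 under EGCG. The black bar is the list's median, from -1.32 for cAMP-induced genes to 1.42 for contractile and YAP target genes, beside 0.02 over all genes.

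Genes induced by cyclic AMP, which IBMX raises, were lower after its withdrawal. Of 12 tested members 11 fell and none rose, with a median of -1.32. Rgs2, a regulator that damps G protein signalling, stood at 31.3, 27.3 and 30.3 FPKM on day 4 and 2.77, 2.69 and 3.12 on day 8 (log2 change -3.02 ± 0.07, adjusted p = 2.2e-10). Pde4b, a cyclic AMP phosphodiesterase, had 14.4, 13.3 and 12.6 FPKM on day 4 and 3.41, 3.65 and 3.36 on day 8 (log2 change -1.71 ± 0.08, adjusted p = 1.3e-08). The orphan nuclear receptor Nr4a1 had 107, 98.9 and 119.8 FPKM on day 4 and 35.5, 30.4 and 38.1 on day 8 (log2 change -1.62 ± 0.27, adjusted p = 3.2e-04). In each of these genes all 3 day 4 libraries lay above all 3 day 8 libraries, as they did for the EGF family ligand Areg (-1.73), Pde4d (-1.55) and the kinase gene Sik1 (-1.36). Nr4a2 was not called (log2 change -0.24 ± 0.12, adjusted p = 0.098). WAT control cells had 12 of the 12 called lower (median -1.08), beside 4684 genes (33.2%) lower over all genes there.

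The cyclic AMP response element, TGACGTCA on either strand, was looked for in RefSeq promoter windows of GRCm38.p6, 300 bases around each start site. It lay in 1 of 12 windows of the list (8.33%), that of Areg, beside 1.79% of 32851 windows of all genes, and this motif was chosen after values were seen. The stretch upstream of Areg is shown because its gene fell with the list and holds the whole element, in capitals.
Areg, chr5:91139479-91139598, plus strand: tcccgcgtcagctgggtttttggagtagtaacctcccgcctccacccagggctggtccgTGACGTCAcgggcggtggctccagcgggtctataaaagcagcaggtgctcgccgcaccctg

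Glucocorticoid-induced genes fell in 9 and rose in 2 of 15 tested members (median -0.63). WAT control cells, in the same media without EGCG, had 5 called higher and 4 lower (median 0.13). The day change was called lower under EGCG than in control cells for 7 members and higher for 1, beside 19.7% and 29.7% of all genes. Ddit4, an inhibitor of mTORC1, had 316, 292 and 244 FPKM on day 4 and 75.6, 74.4 and 60.1 on day 8 (log2 change -2.0 ± 0.23, adjusted p = 1.5e-05). Mt2, a metallothionein, had 5879, 5021 and 6905 FPKM on day 4 and 2801, 2603 and 3052 on day 8 (log2 change -1.01 ± 0.14, adjusted p = 8.6e-05), the highest level in the list. The MAP kinase phosphatase gene Dusp1 (-1.20), the transcription factor gene Zbtb16 (-1.03) and Mt1 (-0.85) also fell, without overlap between the days in any replicate. Sgk1 (0.36) and Klf9 (0.25) rose, and the classical targets Fkbp5 (log2 change -0.28 ± 0.21, adjusted p = 0.27) and Tsc22d3 (log2 change 0.44 ± 0.29, adjusted p = 0.22) did not pass the test. The call for Mt2 was lost under quantile normalization (log2 change -0.36).

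Thyroid hormone receptors and targets, set against the addition of T3, rose in 5 and fell in 2 of 9 tested members (median 0.25). Hr, a corepressor that T3 induces, had 0.833, 0.677 and 0.738 FPKM on day 4 and 4.73, 4.94 and 4.59 on day 8 (log2 change 1.73 ± 0.15, adjusted p = 1.5e-06). Thrb, which encodes thyroid hormone receptor β, had 0.977, 1.0 and 0.498 FPKM on day 4 and 2.83, 2.99 and 1.78 on day 8 (log2 change 0.97 ± 0.10, adjusted p = 4.3e-06), while the more abundant Thra fell (log2 change -0.46 ± 0.07, adjusted p = 1.3e-04). The lipogenic target Me1 rose as well (1.06). The deiodinases moved apart. Dio3, which inactivates T3, had 2.83, 2.57 and 2.73 FPKM on day 4 and 34.1, 37.6 and 36 on day 8 (log2 change 3.32 ± 0.11, adjusted p = 1.3e-09), whereas Dio2, which makes T3, had 3.21, 2.77 and 2.75 FPKM on day 4 and 0.476, 0.38 and 0.54 on day 8 (log2 change -1.48 ± 0.12, adjusted p = 1.1e-06). Neither gene overlapped between the days. In WAT control cells 6 members of the list were called higher and 1 lower (median 0.43). The day change was called lower under EGCG than in control cells for 5 members and higher for 1, beside 19.7% and 29.7% of all genes.

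Of 13 core adipogenic transcription factors, 5 fell and 3 rose. Pparg, the central regulator, had 17.8, 18.5 and 14.7 FPKM on day 4 and 9.06, 8.05 and 7.62 on day 8 (log2 change -1.01 ± 0.11, adjusted p = 7.2e-06). Cebpb, which acts early, had 167, 145 and 351 FPKM on day 4 and 62.3, 57.5 and 156 on day 8 (log2 change -1.36 ± 0.10, adjusted p = 3.0e-07), with replicate 3 higher on both days in its own table. Cebpa, partner of Pparg in mature cells, had 27.1, 25.6 and 30.5 FPKM on day 4 and 19.8, 17.6 and 21.5 on day 8 (log2 change -0.47 ± 0.10, adjusted p = 0.0016). Within each table the day 8 value lay below that of day 4 for all of these. Klf15 (-0.98) and Cebpd (-0.63) fell, Zfp423 (0.43), Ebf1 (0.27) and Srebf1 (0.27) rose, and Klf5, Ebf2, Nr1h3, Rxra and Mlxipl were not called. In WAT control cells Pparg had 53.9 ± 4.4 FPKM on day 4 and 60.2 ± 8.49 on day 8 (mean ± SD, n = 2), and the day changes of the arms differed (log2 difference -1.16 ± 0.15, adjusted p = 7.8e-05).

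Genes of the mature adipocyte fell in 15 and rose in 1 of 22 tested members (median -0.49, with a pseudocount of 0.1 -1.0 and with voom on recovered reads -1.15). Fabp4, the fatty acid carrier of adipocytes, had 382, 345 and 349 FPKM on day 4 and 117, 133 and 116 on day 8 (log2 change -1.53 ± 0.10, adjusted p = 1.4e-07). Plin1, the coat protein of the lipid droplet, had 4.93, 4.99 and 4.94 FPKM on day 4 and 0.171, 0.707 and 0.321 on day 8 (log2 change -2.08 ± 0.14, adjusted p = 2.0e-07), and Dgat2, which makes triglyceride, had 12.6, 12.7 and 13 FPKM on day 4 and 2.31, 2.62 and 2.57 on day 8 (log2 change -1.98 ± 0.09, adjusted p = 1.5e-08). No day 8 library reached any day 4 library in these genes. Car3, an abundant carbonic anhydrase of fat (chr3:14863538-14872351, plus strand, NCBIM37), had 35.1, 41.3 and 25.2 FPKM on day 4 and 3.48, 3.38 and 2.78 on day 8 (log2 change -3.14 ± 0.16, adjusted p = 3.0e-08). Cd36 for fatty acid uptake (-1.59), Retn for the adipokine resistin (-1.41), Adipoq for adiponectin (-0.86) and Lipe for hormone-sensitive lipase (-0.83) fell with them, and Plin4 rose (0.33). Cfd, the adipsin gene, was not called (log2 change -0.18 ± 0.13, adjusted p = 0.26). Beside these the summed macrophage markers, mostly Lyz2, fell and the contractile genes described below rose, and their part in the result was not tested.

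In WAT control cells 17 of the same 22 genes were called higher on day 8 and 1 lower (median 1.19), beside 3907 (27.7%) higher over all genes there. Fabp4 there had 1789 ± 169 FPKM on day 4 and 4022 ± 410.5 on day 8, a day change that exceeded that under EGCG (log2 difference -2.70 ± 0.14, adjusted p = 1.1e-07). The difference between the day changes was called lower under EGCG for 20 of 22 members and higher for none, beside 2775 (19.7%) lower and 4187 (29.7%) higher over all genes. Car3 was among them although it did not rise in control cells, where it had 1563 ± 179 FPKM on day 4 and 1277 ± 114 on day 8. Genes could enter the test through any of the 8 groups. A gene near 0 on both EGCG days, such as Lep (at most 0.0077 FPKM), can be called lower only through the control arm. The same limit holds for the other counts of called differences.

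Fatty acid synthesis genes fell in 6 and rose in 4 of 13 tested members (median -0.42). Scd1, which desaturates stearate, had 123, 135 and 112 FPKM on day 4 and 57.4, 60.9 and 59.7 on day 8 (log2 change -1.11 ± 0.07, adjusted p = 1.6e-07). Fasn, the fatty acid synthase gene, had 40.7, 41.2 and 40.9 FPKM on day 4 and 27.6, 26.1 and 25.7 on day 8 (log2 change -0.59 ± 0.21, adjusted p = 0.027), a call lost without the filter on low values and without any single library of the 4 (-0.55 to -0.63). Me1, which supplies NADPH, went the other way with 8.86, 7.56 and 8.39 FPKM on day 4 and 18.4, 18 and 19.3 on day 8 (log2 change 1.06 ± 0.09, adjusted p = 1.3e-06). The day 8 libraries of Scd1 and Fasn were all below, and those of Me1 all above, the day 4 libraries. In control cells Scd1 had 529 ± 36.5 FPKM on day 4 and 4339 ± 120.4 on day 8, and the list's median was 1.58. Me1 rose in both arms and more in control cells (log2 difference -2.68 ± 0.13, adjusted p = 6.2e-08).

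Among 21 genes of cholesterol synthesis and uptake, 11 fell and 5 rose (median -0.31). Idi1, which isomerises isopentenyl diphosphate, had 18, 17.4 and 16.4 FPKM on day 4 and 10.7, 11.2 and 8.18 on day 8 (log2 change -0.65 ± 0.06, adjusted p = 3.3e-06). Sqle, the squalene epoxidase gene, had 33.1, 32.1 and 34 FPKM on day 4 and 21, 22.2 and 20.9 on day 8 (log2 change -0.57 ± 0.10, adjusted p = 4.3e-04). The late enzyme gene Sc5d rose (0.59). Days did not overlap in any of these genes. In WAT control cells 15 members of the list were called lower and 3 higher (median -0.44). The day change was called higher under EGCG than in control cells for 11 members and lower for 5, beside 29.7% and 19.7% of all genes. The sterol response element TCACNCCAC was in 0 of 16 windows of 13 members, beside 1.24% of all windows, and CCAAT in 13 of 16 (81.3%), beside 37.4%. TTTGAA was in 1 of 16 (6.25%), beside 17.9%.

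**Figure D3:**
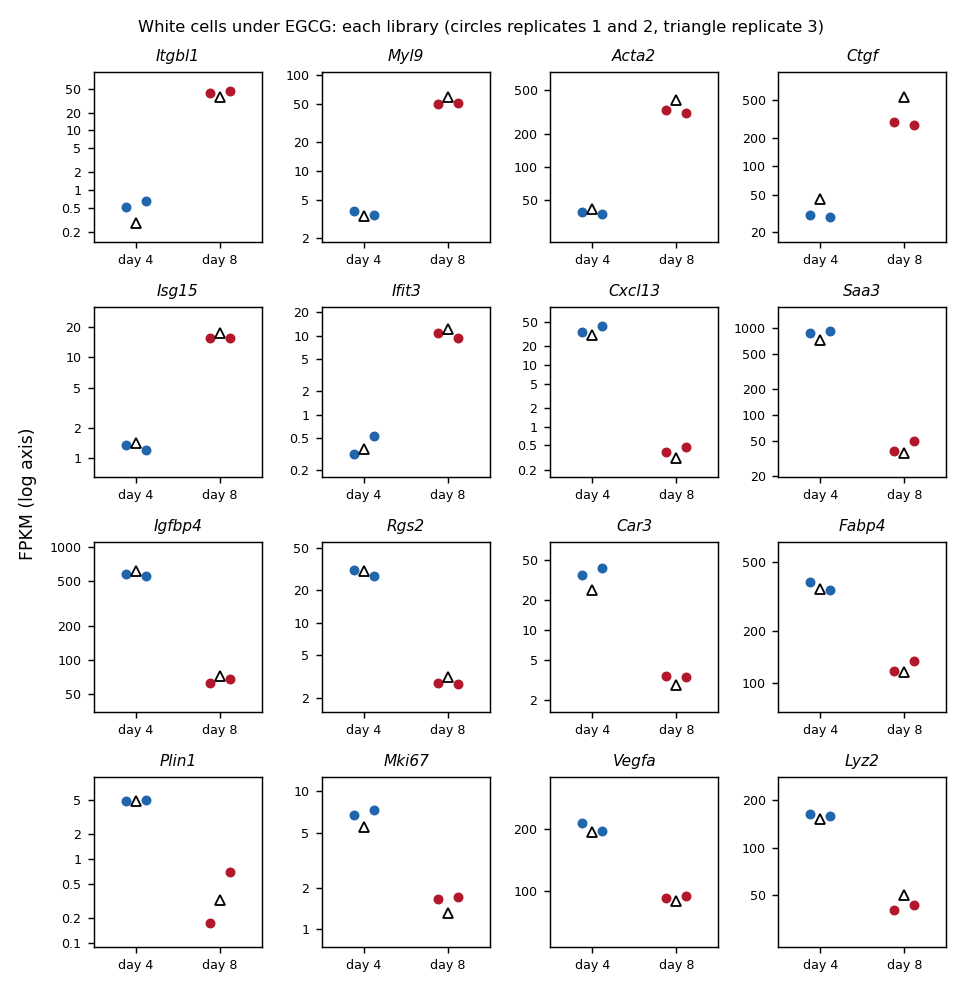
FPKM on a log axis in each of the 6 libraries for 16 genes. Circles are replicates 1 and 2 and triangles replicate 3, whose table was scaled separately. Day 8 lies above day 4 in the 6 panels from Itgbl1 to Ifit3 and below it in the 10 panels from Cxcl13 to Lyz2, with no overlap in any panel.

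Genes of the mitochondrion had small changes. Of 20 subunits of oxidative phosphorylation 10 rose and none fell, with a median of 0.16. The largest change was that of Atp5b, a subunit of ATP synthase, with 337, 324 and 349 FPKM on day 4 and 476, 453 and 497 on day 8 (log2 change 0.49 ± 0.07, adjusted p = 8.4e-05), and Cox4i1 was not called (log2 change 0.02 ± 0.07, adjusted p = 0.76). Fatty acid oxidation genes rose in 5 and fell in 1 of 11 (median 0.11), led by Cpt1a, the gate of fatty acid entry into mitochondria, with 15.4, 16.9 and 15.5 FPKM on day 4 and 27, 27.5 and 25.1 on day 8 (log2 change 0.72 ± 0.11, adjusted p = 1.3e-04). Both Atp5b and Cpt1a were higher in every day 8 library. The share of reads on mitochondrially encoded genes was 1.72% and 1.79% on day 4 and 1.21% and 1.25% on day 8 in replicates 1 and 2. In replicate 3 it was 1.43% and 0.397% of all deposited reads. The day 8 total there includes the 61.0% of reads on the 5 dropped genes, which lowers the share, so these days are not comparable. The part of this share in these values was not tested. With replicate 3 included as deposited in a fit of both tables, the medians of both lists turned negative (-0.27 and -0.25), and quantile normalization lowered them to 0.079 and 0.016. Thermogenic genes stayed low, with 1 called higher and 3 lower of 8 tested (median -0.02). Ucp1, the uncoupling protein of brown fat, was under 0.02 FPKM in replicates 1 and 2 of both days, too low to show a change, and was not called. Cox8b fell (log2 change -0.74 ± 0.23, adjusted p = 0.014), a call lost without replicate 1 of day 4 or replicate 2 of day 8 (-0.56 in each). Cox7a1 rose (0.60), a call lost without replicate 2 of day 4 (0.40).

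Contractile and YAP target genes rose in 14 of 14 tested members (median 1.42). Myl9, the regulatory light chain of smooth muscle myosin (chr2:156601156-156607394, plus strand, NCBIM37), had 3.86, 3.46 and 3.36 FPKM on day 4 and 50.7, 51.2 and 59 on day 8 (log2 change 3.48 ± 0.14, adjusted p = 6.1e-09). Acta2, the smooth muscle actin that marks myofibroblasts, had 39, 37.5 and 41.4 FPKM on day 4 and 329.6, 314 and 409 on day 8 (log2 change 3.04 ± 0.18, adjusted p = 6.3e-08). Tagln, an actin-binding protein, had 35.6, 35.4 and 37.6 FPKM on day 4 and 312, 317 and 406 on day 8 (log2 change 3.11 ± 0.15, adjusted p = 1.5e-08). All 3 day 8 libraries stood above all 3 day 4 libraries, and the same was true of Ctgf, a matricellular target of YAP and TGF-β, with 30.2, 29.4 and 45.4 FPKM on day 4 and 292, 270.2 and 537 on day 8 (log2 change 3.20 ± 0.18, adjusted p = 6.4e-08). The smallest rise was that of Synpo2 (log2 change 0.31 ± 0.09, adjusted p = 0.0087). In control cells 11 members rose and 2 fell (median 0.73). The day change was called higher under EGCG than in control cells for 8 of 14 and lower for none, beside 29.7% and 19.7% of all genes. It was called higher than in BAT EGCG cells for 9 and lower for 1, beside 1805 (12.8%) and 1011 (7.17%) over all genes.

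A CArG box, the binding site of serum response factor, lay in 1 of 10 windows of the list (10%), that of Myl9, beside 1.63% of all windows. It was chosen as a motif after values were seen. The stretch is shown because Myl9 rose most in the list, with the box in capitals.
Myl9, chr2:156775248-156775367, plus strand: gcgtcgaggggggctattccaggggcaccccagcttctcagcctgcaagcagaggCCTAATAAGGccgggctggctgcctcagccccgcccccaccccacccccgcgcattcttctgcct

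Matrix genes divided. Of 17 collagen chains 10 fell and 4 rose (median -0.27). Col15a1, a basement membrane collagen, had 179, 209 and 178 FPKM on day 4 and 44.7, 49 and 42.6 on day 8 (log2 change -2.02 ± 0.16, adjusted p = 6.2e-07), and Col4a1, the main chain of basement membranes, had 1923, 2016 and 1859 FPKM on day 4 and 920.5, 932 and 874 on day 8 (log2 change -1.09 ± 0.10, adjusted p = 2.4e-06). Col8a1, a short-chain collagen, had 2.42, 2.67 and 1.95 FPKM on day 4 and 14.2, 14.1 and 16.5 on day 8 (log2 change 2.09 ± 0.13, adjusted p = 9.2e-08). Days did not overlap for these. Col5a3 (-1.64) and Col3a1 (-0.92) fell, the latter not under quantile normalization (log2 change -0.15), and Col1a2 was not called (log2 change 0.11 ± 0.09, adjusted p = 0.34).

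Among 19 other matrix proteins 10 rose and 7 fell (median 0.26). Postn, the matricellular protein periostin, had 552, 654 and 529 FPKM on day 4 and 1917, 1948 and 1871 on day 8 (log2 change 1.68 ± 0.09, adjusted p = 3.9e-08). Fbln5, needed for elastic fibre assembly, had 7.26, 8.01 and 8.03 FPKM on day 4 and 25.5, 25.1 and 25.3 on day 8 (log2 change 1.61 ± 0.06, adjusted p = 4.5e-09), while Fbln1 had 52.6, 62.6 and 59.4 FPKM on day 4 and 10.8, 12.4 and 11.1 on day 8 (log2 change -2.21 ± 0.12, adjusted p = 4.0e-08). The fibulins thus moved in opposite directions without overlap, Fbln2 rising with Fbln5 (1.20). Thbs1 (1.26), Lox for collagen crosslinking (0.97) and Tnc (0.95) rose, and Spp1 (-0.79), Lum (-0.66) and Eln (-0.61) fell. Matrix proteases and their inhibitors rose in 7 and fell in 5 of 15, with a median of 0.00 whose sign depended on the scaling. The inhibitor gene Timp3 had 20.8, 19.2 and 18.6 FPKM on day 4 and 110.0, 108 and 105 on day 8 (log2 change 2.39 ± 0.20, adjusted p = 1.4e-06), and Mmp2, a gelatinase, had 1359, 1475 and 1456 FPKM on day 4 and 621, 645 and 633 on day 8 (log2 change -1.16 ± 0.06, adjusted p = 2.4e-08). Adamts5 (1.79) and Timp2 (1.45) rose, and Mmp3 (-1.05) and Adamts4 (-1.02) fell.

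Progenitor markers rose in 8 and fell in 2 of 11 tested members (median 0.74). They rose in WAT control cells too, with 7 called higher and 3 lower (median 0.58). The day change was called lower under EGCG than in control cells for 6 members and higher for 3, beside 19.7% and 29.7% of all genes. Ly6a, the stem cell antigen Sca-1, had 315, 302 and 286 FPKM on day 4 and 523, 506 and 449 on day 8 (log2 change 0.74 ± 0.16, adjusted p = 0.0019). Cd34 had 3.85, 4.9 and 4.82 FPKM on day 4 and 11.4, 10.9 and 11 on day 8 (log2 change 1.18 ± 0.13, adjusted p = 9.6e-06). Cd24a had 39.7, 31.5 and 40.5 FPKM on day 4 and 7.94, 6.66 and 5.74 on day 8 (log2 change -2.14 ± 0.15, adjusted p = 2.6e-07), and Dlk1, or Pref-1, which holds preadipocytes back from differentiation, fell too (log2 change -1.57 ± 0.19, adjusted p = 2.9e-05). Ly6a and Cd34 were higher and Cd24a and Dlk1 lower in each day 8 library than in any day 4 library. Pdgfrb (0.84), Thy1 (0.77) and Cd44 (1.16) rose, and Pdgfra was not called (log2 change -0.09 ± 0.09, adjusted p = 0.40).

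In the insulin-like growth factor system 5 of 10 genes fell and 2 rose. Igfbp4, a secreted binding protein that withholds IGF from its receptor, had 571, 555 and 614 FPKM on day 4 and 62.8, 68.7 and 71.9 on day 8 (log2 change -3.08 ± 0.15, adjusted p = 2.4e-08). Igfbp3, the main carrier of IGF in serum, had 519, 443 and 533 FPKM on day 4 and 155, 149.5 and 158 on day 8 (log2 change -1.65 ± 0.15, adjusted p = 2.8e-06), whereas Igfbp5 had 67.6, 77.7 and 55.8 FPKM on day 4 and 156, 153 and 161 on day 8 (log2 change 1.08 ± 0.14, adjusted p = 4.5e-05). No library of the other day came within these ranges. Igfbp6 rose (0.99), the ligands Igf1 (-1.24) and Igf2 (-0.42) fell, and the receptor genes Igf1r (log2 change 0.07 ± 0.06, adjusted p = 0.39) and Igf2r (log2 change -0.09 ± 0.08, adjusted p = 0.39) did not pass the test. For Igfbp3 the control cells rose, with 189 ± 2.81 FPKM on day 4 and 467 ± 150.3 on day 8, and the day changes differed (log2 difference -2.91 ± 0.22, adjusted p = 1.7e-06).

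Wnt pathway genes rose in 7 and fell in 4 of 14 tested members (median 0.56). Wisp2, a secreted Wnt-induced protein of fat precursors, had 3.9, 2.68 and 4.54 FPKM on day 4 and 41, 41.8 and 41.9 on day 8 (log2 change 3.32 ± 0.14, adjusted p = 6.6e-09). Among antagonists, Dkk3 (1.21), Dkk2 (1.37) and Sfrp1 (0.97) rose, and Sfrp5 (-1.36) and Sfrp2 (-0.78) fell. The ligand gene Wnt10b, which restrains adipogenesis, rose from a mean of 0.0391 to 0.939 FPKM (log2 change 0.90 ± 0.13, adjusted p = 1.2e-04). The receptor gene Fzd1 (-1.36) and the feedback target Axin2 (-0.64) fell. In the TGF-β and BMP list 9 of 19 rose and 8 fell. Ltbp2, a latent TGF-β binding protein family member of elastic fibres, had 4.06, 3.8 and 4.21 FPKM on day 4 and 40.0, 39.4 and 44.4 on day 8 (log2 change 3.05 ± 0.12, adjusted p = 3.7e-09). Days were apart in all 3 replicates of Wisp2 and Ltbp2. The BMP and TGF-β pseudoreceptor Bambi (-1.45), Gdf10 (-1.02), Tgfb2 (-0.99) and the BMP target Id2 (-0.99) fell, and Grem1 (0.92) and Tgfb3 (0.62) rose.

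Cell cycle genes fell in 22 and rose in 1 of 24 tested members (median -1.01). Top2a, the topoisomerase of dividing cells, had 14.2, 15.5 and 13.6 FPKM on day 4 and 4.01, 3.71 and 3.94 on day 8 (log2 change -1.71 ± 0.08, adjusted p = 1.3e-08). Mki67, the Ki-67 gene, had 6.74, 7.25 and 5.51 FPKM on day 4 and 1.67, 1.71 and 1.31 on day 8 (log2 change -1.57 ± 0.08, adjusted p = 1.9e-08), and the replication helicase subunit Mcm5 had 7.24, 6.24 and 7.03 FPKM on day 4 and 1.55, 1.54 and 1.69 on day 8 (log2 change -1.60 ± 0.13, adjusted p = 7.5e-07). Each day 8 library was below each day 4 library. Ccnd1, the D cyclin of the G1 phase, was the member that rose, from a mean of 16.7 to 36.6 FPKM (log2 change 1.09 ± 0.07, adjusted p = 1.2e-07), and E2f1 was not called. Of the CDK inhibitors, Cdkn1a (p21) had 218, 194 and 218 FPKM on day 4 and 323, 316 and 325 on day 8 (log2 change 0.63 ± 0.06, adjusted p = 3.3e-06), Cdkn2a rose (0.53) and Cdkn1b fell (-0.43). In control cells 23 cell cycle genes fell and 1 rose (median -1.61), and the day change was called higher under EGCG than in control cells for 18 of 24 members, beside 29.7% of all genes, and higher than in BAT EGCG cells for 23 of 24, beside 12.8%, with none lower in either comparison.

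The CCAAT box lay in 16 of 20 promoter windows of this list (80%), beside 37.4% of all windows, and the cell cycle homology region TTTGAA, the DNA contact of the DREAM complex, in 9 of 20 (45%), beside 17.9%. TCACNCCAC lay in 0 of 20. Both strands were searched. Stretches upstream of the start sites of Top2a, with CCAAT or its reverse complement in capitals, and of Mki67, with TTTGAA in capitals, are shown because each holds more than 1 copy. No site was tested for binding.
Top2a, chr11:99024190-99024309, minus strand: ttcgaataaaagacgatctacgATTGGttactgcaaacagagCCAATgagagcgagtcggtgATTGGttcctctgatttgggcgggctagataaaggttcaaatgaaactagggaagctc
Mki67, chr7:135716415-135716534, minus strand: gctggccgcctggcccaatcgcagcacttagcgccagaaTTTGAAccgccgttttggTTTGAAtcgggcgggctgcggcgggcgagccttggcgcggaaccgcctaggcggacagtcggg

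Hypoxia and glycolysis genes fell in 17 and rose in 1 of 20 (median -0.57). Vegfa, the endothelial growth factor, had 215, 196 and 195 FPKM on day 4 and 93, 95.6 and 90.1 on day 8 (log2 change -1.12 ± 0.04, adjusted p = 4.5e-09). Ero1l, an oxidase of disulfide formation, had 139, 138 and 125 FPKM on day 4 and 39.3, 39.1 and 37.9 on day 8 (log2 change -1.80 ± 0.08, adjusted p = 7.3e-09). Pgk1, a glycolytic kinase, fell from a mean of 566 to 386 FPKM (log2 change -0.55 ± 0.06, adjusted p = 1.7e-05). Ndrg1 (-1.35), P4ha2 for collagen hydroxylation (-1.21) and Kdm3a (-0.80) fell, and days were apart in each. Adm, the adrenomedullin gene, rose instead, with 87.5, 80.4 and 89.9 FPKM on day 4 and 189.9, 200.0 and 198 on day 8 (log2 change 1.21 ± 0.06, adjusted p = 3.4e-08). Control cells went the other way for most of the list, with 16 called higher, 2 lower and a median of 0.87. The difference was called lower under EGCG for 19 of 20, beside 19.7% of all genes. Vegfa in control cells had 73 ± 0.803 FPKM on day 4 and 97.2 ± 2.06 on day 8.

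NRF2 targets fell in 12 and rose in 4 of 19 (median -0.40). Hmox1, which breaks down haem, had 1155, 1082 and 1236 FPKM on day 4 and 573, 564 and 589 on day 8 (log2 change -0.97 ± 0.08, adjusted p = 8.5e-07). Gclc, which catalyses the limiting step of glutathione synthesis, had 70.7, 61.7 and 58.9 FPKM on day 4 and 28.8, 25.2 and 20.6 on day 8 (log2 change -1.26 ± 0.10, adjusted p = 5.4e-07), and Fth1, the ferritin heavy chain, had 5252, 4708 and 5848 FPKM on day 4 and 2375, 2362 and 2604 on day 8 (log2 change -1.07 ± 0.07, adjusted p = 1.8e-07). These fell in every replicate without overlap, while Nqo1, the usual reporter of the pathway, was not called (log2 change -0.20 ± 0.10, adjusted p = 0.11), and Gstm1 (0.91) and Osgin1 (0.47) rose. On day 8 Hmox1 remained above the control cells, which had 198 ± 7.42 FPKM on day 4 and 138 ± 14.4 on day 8. The day change was called lower under EGCG than in control cells for 12 of 19 targets and higher for none, beside 19.7% and 29.7% of all genes. Of 12 other antioxidant enzymes 6 rose and 3 fell, and the sign of their median (0.05) turned under quantile normalization. Gpx1, a glutathione peroxidase, had 66.4, 60.2 and 76.1 FPKM on day 4 and 196, 181 and 213 on day 8 (log2 change 1.56 ± 0.07, adjusted p = 1.4e-08), and Sod2, the mitochondrial superoxide dismutase, had 46.1, 41.8 and 48.2 FPKM on day 4 and 14.2, 14.3 and 16.1 on day 8 (log2 change -1.56 ± 0.06, adjusted p = 3.1e-09). These lay apart between days in opposite directions.

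Endoplasmic reticulum and ATF4 stress genes fell in 7 and rose in 3 of 15 (median -0.25). Genes of serine and asparagine synthesis fell, with 82.7, 85.4 and 81.7 FPKM on day 4 and 44.2, 43 and 44.5 on day 8 for Psat1 (log2 change -0.93 ± 0.06, adjusted p = 9.9e-08) and 86.8, 85.9 and 84.5 FPKM on day 4 and 52.9, 52.4 and 55.3 on day 8 for Asns (log2 change -0.70 ± 0.06, adjusted p = 1.2e-06). Days did not overlap in either. Atf4 itself fell (-0.46), the chaperone genes Hspa5 (0.36) and Hsp90b1 (0.37) and the stress factor Atf3 (0.63) rose, and Ddit3 (log2 change 0.16 ± 0.14, adjusted p = 0.36) was not called. WAT control cells fell more, with 13 called lower, none higher and a median of -0.69. The day change was called higher under EGCG than in control cells for 8 members and lower for 1, beside 29.7% and 19.7% of all genes.

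Chemokine and cytokine genes fell in 8 and rose in 5 of 18. The neutrophil chemokine Cxcl1 had 15.7, 11.6 and 17.9 FPKM on day 4 and 1.43, 0.869 and 0.775 on day 8 (log2 change -2.77 ± 0.22, adjusted p = 7.1e-07), and Il33, an alarmin of fat stromal cells, had 57.2, 50.0 and 53.4 FPKM on day 4 and 11.5, 11.6 and 9.94 on day 8 (log2 change -2.11 ± 0.26, adjusted p = 2.3e-05). The monocyte chemokine Ccl8 had 3.19, 1.55 and 3.51 FPKM on day 4 and 44.1, 52.8 and 64.7 on day 8 (log2 change 3.91 ± 0.26, adjusted p = 1.6e-07). Cxcl5 (-2.53), Cxcl2 (-2.06) and Il6 (-1.01) fell, whereas Ccl7 (1.65), Ccl2 (0.54) and Csf1, the macrophage growth factor (1.14), rose. Days did not overlap in any of these genes.

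Interferon-stimulated genes rose in 10 and fell in 1 of 14 tested members (median 1.37, with a pseudocount of 0.1 2.16 and with voom on recovered reads 2.37). Ifit3, an antiviral protein of the IFIT family, had 0.312, 0.529 and 0.367 FPKM on day 4 and 11, 9.43 and 12.1 on day 8 (log2 change 2.98 ± 0.37, adjusted p = 2.6e-05). Isg15, a ubiquitin-like modifier, had 1.35, 1.19 and 1.41 FPKM on day 4 and 15.5, 15.5 and 17.3 on day 8 (log2 change 2.86 ± 0.16, adjusted p = 4.2e-08), and Gbp2, an interferon-induced GTPase, had 0.658, 0.733 and 0.644 FPKM on day 4 and 7.68, 7.82 and 8.19 on day 8 (log2 change 2.37 ± 0.11, adjusted p = 1.8e-08). No day 4 library reached a day 8 library. Ifit2 (2.03), Bst2 (1.62) and Irf7 (1.43) rose, and Irf1 fell (log2 change -0.69 ± 0.09, adjusted p = 3.7e-05). Control cells rose in 14 of 14 (median 1.86) from higher levels, Isg15 having 28.7 ± 4.08 FPKM on day 4 and 129 ± 9.61 on day 8 there. The day change under EGCG was called lower than in control cells for 7 members and higher for 2, beside 19.7% and 29.7% of all genes. These calls are on the log2(FPKM + 1) scale. It understates a rise from low day 4 levels, such as those of Ifit3, Isg15 and Gbp2 under EGCG. The part of the scale in these calls was not tested.

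The core of the interferon-stimulated response element, GAAANNGAA on either strand, lay in 7 of 13 promoter windows of the list (53.8%), beside 8.56% of all windows, and was chosen after values were seen. The upstream stretches of Ifit3 and Isg15 are shown as the members that rose most, each with repeated copies in capitals (in Ifit3 on the opposite strand).
Ifit3, chr19:34583371-34583490, plus strand: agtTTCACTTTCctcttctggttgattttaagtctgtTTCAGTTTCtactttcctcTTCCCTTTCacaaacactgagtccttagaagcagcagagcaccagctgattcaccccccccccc
Isg15, chr4:156200821-156200940, minus strand: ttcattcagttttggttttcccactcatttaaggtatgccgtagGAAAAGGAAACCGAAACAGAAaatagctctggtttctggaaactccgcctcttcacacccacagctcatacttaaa

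MHC class I genes and their processing machinery rose in 6 and fell in 1 of 8 (median 0.60). B2m, the light chain of class I, had 248, 246 and 237 FPKM on day 4 and 539.9, 565 and 587 on day 8 (log2 change 1.16 ± 0.06, adjusted p = 1.7e-08), and H2-D1 had 69.1, 70.9 and 76 FPKM on day 4 and 102, 105 and 122 on day 8 (log2 change 0.56 ± 0.06, adjusted p = 1.4e-05). Both were higher in every day 8 library, and H2-K1 fell (-0.19). Control cells rose in 8 of 8 (median 1.66), and all 8 differences were called lower under EGCG, beside 19.7% of all genes. Of 4 tested MHC class II genes 2 rose and 1 fell, and the sign of their median turned with a pseudocount of 0.1. Complement genes rose in 5 and fell in 3 of 9. C4b, a component of the classical pathway, had 8.58, 8.25 and 7.21 FPKM on day 4 and 28, 31.8 and 27.2 on day 8 (log2 change 1.71 ± 0.08, adjusted p = 1.3e-08). In control cells C3 had 84.7 ± 4.63 FPKM on day 4 and 706 ± 158 on day 8, whereas under EGCG it fell, with 19.6, 22.4 and 18.9 FPKM on day 4 and 11.6, 12.3 and 11.3 on day 8 (log2 change -0.76 ± 0.14, adjusted p = 6.3e-04). C3 was lower and C4b higher in each day 8 library than in any day 4 library.

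Markers of other cell types moved too. Macrophage markers fell in 8 and rose in none of 10 tested (median -0.66, with a pseudocount of 0.1 -1.02 and with voom on recovered reads -1.08): Lyz2, lysozyme, had 164, 160.5 and 152 FPKM on day 4 and 40.5, 43.7 and 50.1 on day 8 (log2 change -1.92 ± 0.07, adjusted p = 3.1e-09), and C1qa, a chain of C1q, had 14.1, 13.2 and 12.4 FPKM on day 4 and 1.61, 1.79 and 2.19 on day 8 (log2 change -2.44 ± 0.15, adjusted p = 1.1e-07). Csf1r, the macrophage growth factor receptor gene, was not called (log2 change -0.04 ± 0.12, adjusted p = 0.82). In control cells all 10 rose. The part of these cells in the chemokine, MHC and complement values was not tested. Skeletal muscle genes fell in 7 and rose in 1 of 8. The embryonic myosin gene Myh3 had 14.9, 15.4 and 13.2 FPKM on day 4 and 2.68, 3.23 and 2.43 on day 8 (log2 change -2.03 ± 0.16, adjusted p = 8.7e-07). The day change was called lower than in BAT EGCG cells for all 8 muscle genes, beside 7.17% of all genes. Days did not overlap in Lyz2, C1qa or Myh3. Epithelial keratin genes Krt18 (-1.64) and Krt19 (-1.06) fell, Krt19 having 28.1, 16.3 and 29.8 FPKM on day 4 and 11.3, 8.37 and 11.8 on day 8, and mesothelin, Msln, rose (log2 change 1.46 ± 0.16, adjusted p = 1.2e-05). Schwann cell markers rose in 3 of 5, Sox10 having 10.7, 11.5 and 9.75 FPKM on day 4 and 17.7, 17.5 and 21.8 on day 8 (log2 change 0.62 ± 0.11, adjusted p = 4.3e-04). Of 9 endothelial genes 4 fell and 2 rose, Pecam1 with 12.3, 13 and 12.4 FPKM on day 4 and 6.3, 6.95 and 7.6 on day 8 (log2 change -0.85 ± 0.10, adjusted p = 1.8e-05) and the VEGF receptor gene Kdr with 1.26, 1.14 and 0.893 FPKM on day 4 and 3.76, 3.11 and 3.35 on day 8 (log2 change 1.01 ± 0.10, adjusted p = 6.4e-06).

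Among protein-coding genes that were called, had a mean of at least 5 FPKM on the higher day, were apart between days and moved the same way in replicate 3, the 12 with the highest log2 change included several already described (Myl9, Ccl8, Wisp2 and Dio3). The first was Itgbl1, a secreted protein with integrin-like repeats (ENSMUSG00000032925.9, chr14:124059193-124374840, plus strand, NCBIM37), with 0.524, 0.654 and 0.283 FPKM on day 4 and 42.8, 46.2 and 36.5 on day 8 (log2 change 4.84 ± 0.13, adjusted p = 3.9e-10). S100a4, a calcium-binding protein of fibroblasts, had 18.8, 21 and 24.1 FPKM on day 4 and 257, 232 and 303 on day 8 (log2 change 3.56 ± 0.13, adjusted p = 2.8e-09). Ccdc80, a matrix protein of fat, had 19, 24.2 and 19.6 FPKM on day 4 and 235, 244 and 232 on day 8 (log2 change 3.42 ± 0.09, adjusted p = 3.8e-10). For each of them the lowest day 8 library was far above the highest day 4 library, which the rule of selection largely fixed. The leucine-rich proteoglycan gene Prelp (3.48), Nov of the same family as Ctgf (3.53), Lrrn4cl (3.73), Crip1 (3.22) and 9930013L23Rik (3.36) completed the set.

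The 12 with the lowest log2 change were led by Cxcl13, a B cell chemokine (ENSMUSG00000023078.4, chr5:96385945-96390086, plus strand, NCBIM37), with 34.9, 42.7 and 30.2 FPKM on day 4 and 0.393, 0.47 and 0.315 on day 8 (log2 change -4.79 ± 0.42, adjusted p = 1.6e-06). Saa3, an acute phase protein of fat, had 879, 933 and 739 FPKM on day 4 and 38.3, 50.6 and 36.7 on day 8 (log2 change -4.33 ± 0.18, adjusted p = 6.4e-09), and A2m, a broad protease inhibitor, had 215, 197 and 209 FPKM on day 4 and 12.1, 12.5 and 11.5 on day 8 (log2 change -3.96 ± 0.24, adjusted p = 1.0e-07). These 3 kept no overlap between the days, which the same rule required in replicates 1 and 2. Penk, the proenkephalin gene, had 35, 43 and 45.5 FPKM on day 4 and 1.43, 1.35 and 1.49 on day 8 (log2 change -4.06 ± 0.13, adjusted p = 1.4e-09). Csf3, the granulocyte growth factor, had 12.7, 7.88 and 15.2 FPKM on day 4 and 0.136, 0.124 and 0.0436 on day 8 (log2 change -3.29 ± 0.21, adjusted p = 1.3e-07), and Nid2, a basement membrane linker, had 337, 347 and 356 FPKM on day 4 and 40.2, 41.7 and 38.1 on day 8 (log2 change -3.03 ± 0.12, adjusted p = 4.6e-09). Each of them was low in all 3 day 8 libraries, again largely by the rule. Car3 and Igfbp4, described above, Agtr2 for the angiotensin type 2 receptor (-3.06), Serpina3m (-3.03), Gm8113 (-3.10) and 6030408B16Rik (-3.97) made up the rest. Counting strand is not stated, so reads of overlapping genes cannot be told apart: among genes named here Itgbl1 overlaps Gm9308, Penk A830012C17Rik, Nid2 2700060E02Rik, Prelp Gm15851, Ctgf Gm15270, Tagln Pcsk7, Col4a1 Col4a2, Aspn Cenpp, Fabp3 Zcchc17, Rarres2 Lrrc61 and Timp3 Syn3. Genes with close copies (H2-K1 and H2-D1, Serpina3m, Saa3 and Orm1) are uncertain where a read fits more than 1 copy.

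The day change under EGCG was then tested against that of WAT control cells, which share no library with it. The difference was called for 6962 of 14095 genes (49.4%), 4187 (29.7%) higher and 2775 (19.7%) lower under EGCG, with a median of 0.07. In control cells 3907 genes (27.7%) were higher and 4684 (33.2%) lower on day 8. Of the 5747 genes called in both arms, 2187 were higher and 2308 lower in both, 759 rose under EGCG and fell in control cells, and 493 fell under EGCG and rose in control cells. After median-ratio scaling of the libraries the split of the called differences was 3358 higher and 3308 lower.

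**Figure D4:**
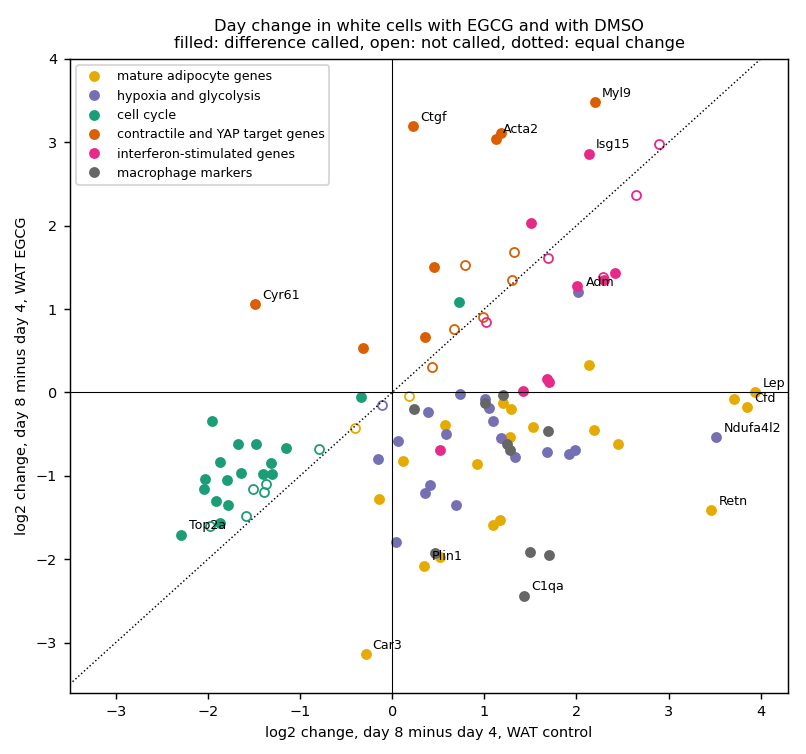
Each point is a member of 6 gene lists, with its log2 change from day 4 to day 8 in WAT control cells (horizontal) and under EGCG (vertical). Filled points had a called difference between the 2 changes, open points did not, and the dotted line marks equal change. Mature adipocyte, hypoxia and macrophage genes lie mostly at right below the line, and contractile genes above it.

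Among the 5 named genes with the lowest difference, Rarres2, which encodes the adipokine chemerin, had 69.4, 53.1 and 92.1 FPKM on day 4 and 18.2, 20.8 and 29.5 on day 8 under EGCG and 18 ± 1.28 FPKM on day 4 and 221 ± 16.7 on day 8 in control cells (log2 difference -5.14 ± 0.16, adjusted p = 2.8e-09). Lrg1, a leucine-rich glycoprotein, had 8.19, 7.46 and 9.34 FPKM on day 4 and 2.19, 1.86 and 4.1 on day 8 against 9.57 ± 0.156 FPKM on day 4 and 119 ± 17.6 on day 8 (log2 difference -5.04 ± 0.14, adjusted p = 1.3e-09). Both genes were apart between days and moved in opposite directions in the 2 arms, as Retn did (log2 difference -4.88 ± 0.19, adjusted p = 1.4e-08) and as the lipase-related Pnpla3 did (log2 difference -5.28 ± 0.12, adjusted p = 4.3e-10). Orm1, an acute phase orosomucoid, was listed at 0 in replicates 1 and 2 of day 4 under EGCG and at 0.0324 FPKM or less on day 8, and had 0.497 ± 0.0629 FPKM on day 4 and 64.7 ± 7.94 on day 8 in control cells, so that the fitted difference (log2 difference -5.43 ± 0.13, adjusted p = 4.3e-10) rests on the control arm.

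Toward higher values under EGCG the leading genes were F3, tissue factor, the starter of coagulation, with 79.5, 86.2 and 80.9 FPKM on day 4 and 479.7, 497 and 482 on day 8 against 301 ± 14.2 FPKM on day 4 and 212 ± 79.3 on day 8 in control cells (log2 difference 3.10 ± 0.24, adjusted p = 2.3e-06), and Aspn, the matrix proteoglycan asporin, with 3.94, 4.21 and 3.45 FPKM on day 4 and 41.4, 37.8 and 32.6 on day 8 against 67.5 ± 2.8 FPKM on day 4 and 68.6 ± 15.6 on day 8 (log2 difference 2.99 ± 0.17, adjusted p = 2.4e-07). Ctgf (log2 difference 2.97 ± 0.26, adjusted p = 5.1e-06) followed, in which control cells had 59.1 ± 7.54 FPKM on day 4 and 71 ± 24.3 on day 8. In control cells Aspn and Ctgf were not called and F3 fell, while the EGCG days lay far apart. Fabp3, the heart fatty acid carrier, had 0.964, 1.62 and 1.4 FPKM on day 4 and 6.47, 4.85 and 7.33 on day 8 against 2.94 ± 0.996 FPKM on day 4 and 0.622 ± 0.362 on day 8 (log2 difference 2.82 ± 0.36, adjusted p = 7.4e-05), and Tfpi2, a protease inhibitor of the matrix, had 14.1, 16.8 and 15.6 FPKM on day 4 and 53, 53.1 and 53.1 on day 8 against 24.7 ± 2.0 FPKM on day 4 and 11.3 ± 2.01 on day 8 (log2 difference 2.80 ± 0.18, adjusted p = 4.8e-07).

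Against EGCG-treated BAT cells the day change differed for 2816 of 14095 genes (20%), 1805 (12.8%) higher and 1011 (7.17%) lower in white cells. In BAT EGCG cells 4191 genes (29.7%) rose and 3980 (28.2%) fell. Of 6263 genes called in both, 3244 rose and 2771 fell in both, 135 rose in white and fell in brown cells, and 113 did the reverse. After quantile normalization the split of the called differences was 1480 higher and 1377 lower. Car3 had 76 ± 20.9 FPKM on day 4 and 69.5 ± 7.08 on day 8 in brown cells, where it was not called, against the fall in white cells (log2 difference -3.04 ± 0.23, adjusted p = 1.6e-05). Mmp3, stromelysin, fell in both, with 813, 882 and 931 FPKM on day 4 and 374, 448 and 393 on day 8 in white cells and 170.0 ± 27.5 FPKM on day 4 and 8.45 ± 1.32 on day 8 in brown (log2 difference 3.13 ± 0.29, adjusted p = 4.8e-05). Dio3 was already high in brown cells on day 4, with 19.3 ± 0.0488 FPKM on day 4 and 23.8 ± 2.81 on day 8 (log2 difference 3.03 ± 0.15, adjusted p = 1.5e-06). The immediate early gene Egr1 had 157, 147 and 157 FPKM on day 4 and 27.1, 26.8 and 35.3 on day 8 in white and 124 ± 5.45 FPKM on day 4 and 202 ± 3.82 on day 8 in brown cells (log2 difference -3.15 ± 0.32, adjusted p = 7.8e-05), falling in the former and rising in the latter, and the antiproliferative gene Btg2 moved likewise (log2 difference -2.74 ± 0.29, adjusted p = 1.0e-04). Sln, a regulator of the muscle calcium pump (log2 difference -3.25 ± 0.37, adjusted p = 1.4e-04), Lrg1 (log2 difference -2.73 ± 0.14, adjusted p = 1.5e-06), Cxcl14 (log2 difference 2.51 ± 0.18, adjusted p = 1.2e-05), Fmo2 (log2 difference 2.68 ± 0.38, adjusted p = 5.8e-04) and the peptide hormone gene Cck (log2 difference 2.98 ± 0.44, adjusted p = 7.9e-04) also differed. The rise of Cck in white cells (1.09) was not called without replicate 1 of day 8 (1.02).

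**Figure D5:**
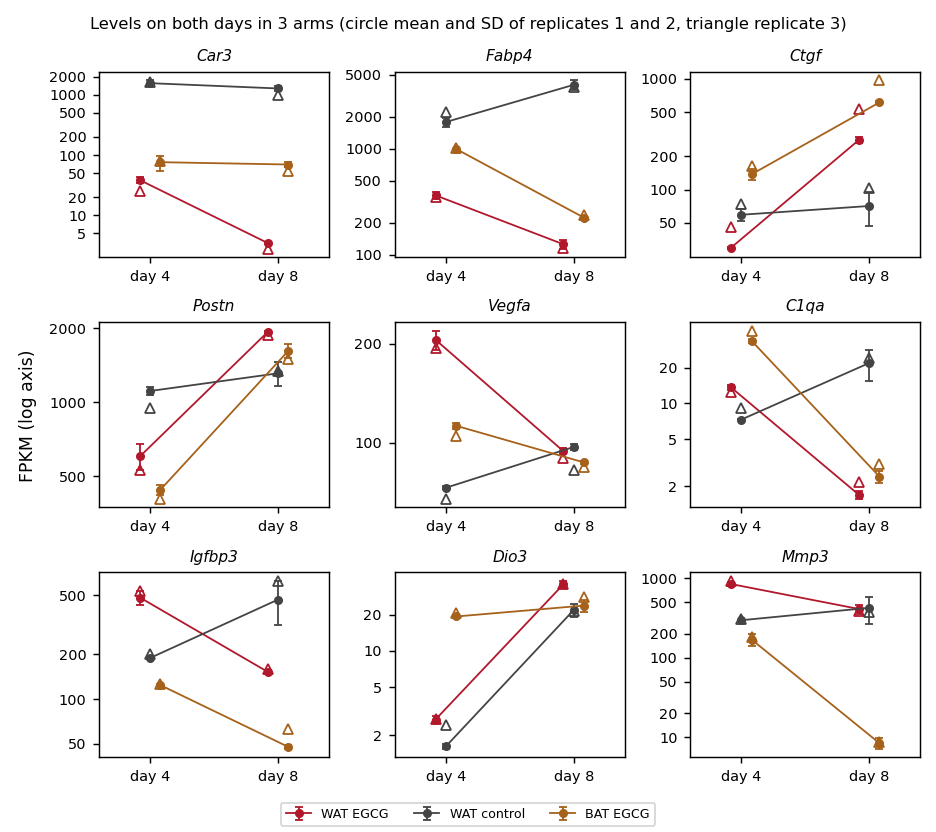
FPKM on a log axis on day 4 and day 8 for 9 genes in WAT EGCG (red), WAT control (grey) and BAT EGCG cells (brown). Circles and bars are the mean and SD of replicates 1 and 2 and triangles are replicate 3. Vegfa, C1qa and Igfbp3 fall in both EGCG arms and are higher on day 8 in control cells, and Car3 falls in WAT EGCG cells and stays between 69.5 and 76 FPKM in brown cells.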

How the data were processed

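Total RNA of cultured cells was sequenced, and the authors deposited FPKM values of 37310 genes in 2 separately scaled tables (replicates 1 and 2, replicate 3). The build mm9 and the tools FastQC 0.11.9, HISAT2 2.2.0 and HTSeq 0.11 are named in the submitters' processing notes, with no role or strand setting. The identifiers matched GENCODE vM1 (NCBIM37). Multiplied by gene length, FPKM values were whole multiples of 1 read (100.0% of values, tolerance 0.01), which gave each library's reads.

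Genes with FPKM of at least 1 in at least 2 of the 16 libraries of replicates 1 and 2 were tested on log2(FPKM + 1), pseudocount 1, with limma 3.58.1 in R 4.3.3 (1 mean for each of 8 groups, trended prior, 8 residual degrees of freedom, 11.4 with the prior), two-sided, with Benjamini-Hochberg adjustment and a threshold of 0.05. Differences between day changes were interaction contrasts. The fit was tested on simulated data. Named genes are the 12 highest and 12 lowest under the rule given above, the 5 highest and 5 lowest of each difference, and up to 5 members with the largest change in each list, and other list members were named after their values were seen. The comparison, its members and the gene lists were chosen with earlier results of these data known. Emr1 and Sc4mol stand for Adgre1 and Msmo1, and Hmgcs1 and Prl2c4 were not matched. Some list members are not reported here by name. Replicate numbers did not pair the samples, so no block was used. Pseudocount, filter, scaling, tables, single libraries and recovered reads were varied.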

Additional observations from a re-analysis of the deposited data

Results flagged for a closer look

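The difference between day changes passed its own test between WAT EGCG and WAT control cells for 6962 genes and between WAT EGCG and BAT EGCG cells for 2816. Against control cells the 5 lowest named differences (log2) were Orm1 at -5.43, Pnpla3 at -5.28, Rarres2 at -5.14, Lrg1 at -5.04 and Retn at -4.88, and the 5 highest were F3 at 3.10, Aspn at 2.99, Ctgf at 2.97, Fabp3 at 2.82 and Tfpi2 at 2.80. Against brown cells they were Sln at -3.25, Egr1 at -3.15, Car3 at -3.04, Btg2 at -2.74 and Lrg1 at -2.73, and Mmp3 at 3.13, Dio3 at 3.03, Cck at 2.98, Fmo2 at 2.68 and Cxcl14 at 2.51. Groups of 3 libraries are too small for the test of single libraries that stand apart. Outside the comparisons, 61.0% of the reads of the WAT EGCG day 8 library of replicate 3 fell on Prl3d1, 1700007K09Rik, 4930555F03Rik, 6030405A18Rik and Gm4675. In that library 3 of these genes, 4930555F03Rik, 6030405A18Rik and Gm4675, had the same count of 3292684 reads.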

How the results depend on the processing

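The count of called genes (8383) was 7148 to 7312 when 1 library was left out, and the counts of called differences were 6002 to 6236 against control cells and 1942 to 2215 against brown cells, fits in which a lone library is assumed to vary like the other groups. The count of genes changed at least 2-fold (1136) was 2018 with a pseudocount of 0.1 and 2118 with voom on recovered reads, which called 8386 genes. Dropping 19 genes from the odd library in place of 5, an alternative chosen after seeing the data, gave 9128 called genes with both tables fitted. With replicate 3 included and its day 8 library as deposited, 1044 genes were called higher and 4650 lower, with a median log2 change of -0.29, the differences fell to 2425 and 700, and 6 genes that had been called higher changed sign: Acaa2 (-0.13), Cox5a (-0.13), Cox5b (-0.11), Decr1 (-0.15), Hadhb (-0.18) and Ndufa9 (-0.045). With the 5 genes dropped and both tables fitted, 4148 differences from brown cells were called, beside 2816. The share of called genes moving the same way in replicate 3 was 95.9% with the 5 genes dropped and 94.1% without the filter. It was 53.4% with that library as deposited, where these 5 genes held 61.0% of the reads and so lowered every other FPKM value. Why they held so many reads was not tested. Of the other values, 3516 gene results stayed on their side of the threshold in the same direction, 64 lost and 13 gained a call. Of the list medians, 486 moved by less than the spread between replicates and 89 by more, 34 of these with that library as deposited. There the medians of thyroid hormone targets (-0.035), other matrix proteins (-0.22), TGF-β and BMP genes (-0.24), matrix proteases (-0.40), other antioxidant enzymes (-0.40), oxidative phosphorylation (-0.27) and fatty acid oxidation (-0.25) turned negative. Near 0, the median of matrix proteases also changed sign under median-ratio scaling (-0.02), that of other antioxidant enzymes under quantile normalization (-0.05), and that of MHC class II with a pseudocount of 0.1 (0.29) and voom (0.38). Quantile normalization gave 0.15 for thyroid hormone targets and 0.10 for TGF-β and BMP genes, and chemokines had a median of -0.27, -0.48 with a pseudocount of 0.1 and -0.53 with voom.

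With the replicate number as a block the counts were 8299, 6853 and 2723. The numbers do not pair the samples: the deviations of the days correlated at 0.0835, within the range of -0.096 to 0.108 over all 28 pairs of groups.

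Depth limits the genes of low level, and 2 libraries a day limit every error given. The labels do not separate biological from technical replicates, and replicate 3 enters p-values only in the fits of both tables named here.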

Other observations

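Gene families picked by symbol after values were seen also moved. They are not all separate from the lists: Mcm2, Mcm3, Mcm5 and Mcm6 belong to the cell cycle list, and Krt18 and Krt19 are described above. Cytosolic ribosomal protein genes fell in 78 and rose in 2 of 82 tested (median -0.59), Mcm genes of DNA replication fell in 9 of 9 (median -0.88), and SR splicing factors fell in 9 of 10 (median -0.41). Keratins fell in 7 and rose in 2 of 11 (median -1.08). These counts stand beside 27.7% lower and 31.8% higher over all genes. In WAT control and BAT EGCG cells the ribosomal protein genes fell in 75 and 77, Mcm genes in 8 and 9, and SR factors in 9 and 9. Keratins fell in 6 and rose in 1 in control cells, and rose in 3 and fell in none in BAT EGCG cells. Over all genes 33.2% fell in control and 28.2% in BAT EGCG cells.

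Annexins, which bind membranes with calcium, rose in 8 of 10 and fell in none (median 0.99), and S100A proteins rose in 7 and fell in 1 of 10 (median 0.87). Small heat shock proteins rose in 5 of 5 (median 1.50), clade B serpins in 6 of 8 with 1 lower (median 1.39), and beta tubulins in 6 of 7 with 1 lower (median 0.59). Proteasome subunits rose in 25 and fell in 1 of 36 (median 0.27), and Hox genes, which keep positional identity, rose in 16 and fell in 1 of 25 (median 0.35). In WAT control and BAT EGCG cells annexins rose in 8 and 9 and S100A proteins in 6 and 7. Small heat shock proteins rose there in 5 and 5, clade B serpins in 7 and 6, beta tubulins in 4 and 4 and Hox genes in 8 and 17. Proteasome subunits rose in 4 and fell in 17 in control cells, and rose in 21 and fell in 2 in BAT EGCG cells. The medians of these families kept their sign under median-ratio scaling and quantile normalization, with -0.62 and -0.49 for the ribosomal proteins.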
